A study of Mus musculus with 12 samples.

Results

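The genes described here encode the enzymes of glycolysis, carriers of glucose and lactate, regulators of glycolytic flux and of pyruvate use, and genes of the response to low oxygen. They were taken as a named list of 34 genes, and 1 probe set stood for each gene, the one with the highest mean over all 12 arrays. Of the 34, 31 had a probe set assigned to that gene alone. Gpi1 and Eno1 were not under these symbols in the probe annotation and every probe set of Bnip3l carried a second symbol, so these 3 genes were not analysed here. Vegfa, a growth factor for blood vessels induced by hypoxia, read 2.28 to 2.39 on all 12 arrays, and P4ha2, a collagen prolyl hydroxylase, 2.12 to 2.20. Both lay below the filter on low values. The remaining 29 were tested among 9893 genes in all, of 18194 with a probe set of their own.

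All values are log2 signals of Affymetrix mouse arrays, and an increase of 1 unit is a doubling of signal. Each array held amplified RNA, from 20 ng of total RNA, of CD4+ T cells sorted from a pool of 2 to 6 mice. The donors were S1pr2V/+ mice. In these, fluorescent Venus reports on S1pr2, which encodes a receptor for the lipid mediator sphingosine-1-phosphate. The lymph node groups were sorted 10 days after subcutaneous immunization with chicken gamma globulin in complete Freund's adjuvant. Venus-high follicular helper T cells (Tfh; 3 arrays) were Venus-high, CXCR5+, PD1-high and CD44-high, and Venus-low Tfh (3 arrays) came from the same gate with low Venus. PD1-intermediate T helper cells (Th; 2 arrays) were CXCR5+, PD1-intermediate and CD44-high, and PD1-low Th (2 arrays) were CXCR5-low, PD1-low and CD44-high. Naive CD4+ T cells (2 arrays) were CD44-low and CD62L-high and came from spleen, so tissue and cell state cannot be told apart in comparisons with them. The labels call their donors immunized S1pr2V/+ mice, while the text on the design also speaks of control mice. All gates left out cells in a dump channel. Venus intensity marks expression from the S1pr2 locus and was the sort, so it is no outcome. The labels give the number of mice pooled for each array, and nothing more is said of how the arrays of a group relate. The p-values below measure the spread between arrays that is left once groups and array sets, described below, are fitted.

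Glycolysis converts glucose to pyruvate in the cytosol, and lactate dehydrogenase turns pyruvate into lactate, which leaves the cell through monocarboxylate carriers. Activated T cells take up and ferment more glucose than resting ones, even with oxygen present. HIF-1α, the product of Hif1a, is destroyed when oxygen is plentiful, because prolyl hydroxylases such as those encoded by Egln1 and Egln3 mark it for degradation. At low oxygen it accumulates and binds the core motif ACGTG near many genes of glycolysis and of oxygen sensing, Egln3 among them. Germinal centres, where Tfh help B cells, have been described as poor in oxygen in parts.

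The arrays fell into 3 sets by the quantiles of their values, with 75% quantiles of 8.50 to 8.55, 8.68 to 8.76 and 9.39 to 9.42. The labels do not name these sets. Set 1 held Venus-high 1, Venus-low 1 and naive 1, set 2 held Venus-high 2, Venus-low 2, PD1-low 1 and naive 2, and set 3 held Venus-high 3, Venus-low 3, PD1-low 2 and both PD1-intermediate arrays. The 2 Tfh groups thus had an array in each set, and the sets coincide with their replicate numbers. All differences below come from a limma fit of 5 groups with the array set as a term, first group minus second, with the SE, and a gene passed at a Benjamini-Hochberg adjusted p under 0.05. Probe sets lying more than 3 log2 units from both other sets numbered 542, 3315 and 234 in sets 1, 2 and 3, and none of the 29 genes was measured by one. T cell markers read above log2 5 on every array in 5 of 5 measured genes. All 6 Tfh markers did so in the 3 CXCR5+ groups. Of the markers of other cells, 4 of 6 for B cells, 7 of 8 for myeloid cells, 2 of 3 for CD8 and NK cells and 3 of 3 for red cells read below log2 5 on every array. The exceptions were Cd79b (up to 8.99, on PD1-low 2), Pax5, whose probe set was among those out of place between sets, S100a9 (up to 6.30) and Cd8b1 (up to 6.62). Cd79b also read 5.90 and 6.64 on Venus-low 2 and 3, 6.65 and 6.68 in PD1-intermediate Th and 5.83 on PD1-low 1. It lay below log2 5 on Venus-low 1 and on all Venus-high and naive arrays. The mean level of a list of cell cycle genes ran from 9.26 to 10.23 on the Venus-high arrays, from 11.36 to 12.31 in Venus-low, from 10.01 to 10.66 in PD1-intermediate, from 6.55 to 7.51 in PD1-low and from 6.15 to 6.55 in naive cells. In sorted populations measured in bulk, fewer cells of a type and less RNA per cell cannot be told apart.

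The promoters of 6 genes that carry the results below are shown first, as RefSeq windows of the build GRCm38.p6 from 250 bases before to 50 bases after the start, written 5′ to 3′ on the gene's strand. Capitals mark the core of the hypoxia response element, ACGTG, or its reverse complement CACGT, and where both overlap they form the E-box CACGTG. Egln3, Bnip3, Hif1a and Slc16a3 are shown as genes with the higher levels in Tfh, and Hk2 and Slc16a1 as genes that were lower in Venus-high than in Venus-low Tfh. All 6 windows hold ACGTG. Not all genes of the list do, and none that lacks it is shown. The windows lie at chr12:54203825-54204124, minus strand for Egln3, chr7:138909457-138909756, minus strand for Bnip3, chr12:73907617-73907916, plus strand for Hif1a, chr11:120948817-120949116, plus strand for Slc16a3, chr6:82774405-82774704, minus strand for Hk2 and chr3:104638414-104638713, plus strand for Slc16a1.
Egln3: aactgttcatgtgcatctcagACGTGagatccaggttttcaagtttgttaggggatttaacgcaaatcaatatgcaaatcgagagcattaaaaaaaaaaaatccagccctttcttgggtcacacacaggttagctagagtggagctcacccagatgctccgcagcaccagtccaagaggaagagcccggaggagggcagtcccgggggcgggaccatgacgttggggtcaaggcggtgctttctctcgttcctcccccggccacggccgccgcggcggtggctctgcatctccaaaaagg
Bnip3: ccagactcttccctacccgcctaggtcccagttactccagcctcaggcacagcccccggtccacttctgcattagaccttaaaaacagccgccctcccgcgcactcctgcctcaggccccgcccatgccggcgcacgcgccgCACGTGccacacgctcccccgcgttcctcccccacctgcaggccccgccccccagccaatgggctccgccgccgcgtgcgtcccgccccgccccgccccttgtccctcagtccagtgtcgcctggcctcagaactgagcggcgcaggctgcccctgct
Hif1a: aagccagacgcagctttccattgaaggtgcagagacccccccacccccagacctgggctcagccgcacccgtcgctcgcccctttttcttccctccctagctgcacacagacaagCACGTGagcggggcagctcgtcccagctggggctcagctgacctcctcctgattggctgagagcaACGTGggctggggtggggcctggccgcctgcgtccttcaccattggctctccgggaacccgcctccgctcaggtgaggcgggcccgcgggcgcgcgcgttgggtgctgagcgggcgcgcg
Slc16a3: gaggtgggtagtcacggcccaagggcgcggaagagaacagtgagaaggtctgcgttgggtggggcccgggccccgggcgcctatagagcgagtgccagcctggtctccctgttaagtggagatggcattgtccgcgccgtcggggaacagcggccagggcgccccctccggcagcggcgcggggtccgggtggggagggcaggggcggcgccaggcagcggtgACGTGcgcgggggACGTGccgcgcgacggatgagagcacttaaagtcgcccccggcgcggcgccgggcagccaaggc
Hk2: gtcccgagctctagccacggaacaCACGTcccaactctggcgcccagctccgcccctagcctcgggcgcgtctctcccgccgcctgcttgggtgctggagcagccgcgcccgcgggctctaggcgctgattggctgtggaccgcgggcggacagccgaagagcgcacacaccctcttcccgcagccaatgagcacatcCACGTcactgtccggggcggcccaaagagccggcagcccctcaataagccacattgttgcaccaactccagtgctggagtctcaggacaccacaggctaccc
Slc16a1: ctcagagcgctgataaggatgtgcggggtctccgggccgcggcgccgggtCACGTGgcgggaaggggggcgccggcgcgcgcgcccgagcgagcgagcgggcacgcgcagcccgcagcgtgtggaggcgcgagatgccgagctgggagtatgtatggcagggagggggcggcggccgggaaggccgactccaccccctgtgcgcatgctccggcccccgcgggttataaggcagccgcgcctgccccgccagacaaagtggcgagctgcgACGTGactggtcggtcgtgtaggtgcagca

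ACGTG stood in Egln3 once, its first base 229 bases before the start, and in Bnip3 once, within a CACGTG 108 bases before it. Hif1a held it 135 bases before the start within a CACGTG and again 70 bases before. In Slc16a3, a lactate exporter, both copies lay close to the start, 27 and 14 bases before it. Hk2 and Slc16a1 also held it at 2 places each. Of the 34 genes, 32 had a window, and 22 of these (68.8%) held ACGTG on either strand, against 30.3% of the 8095 tested genes with a window and 21.8% of all 27025 genes in the table. For CACGTG, which contains ACGTG, the numbers were 6 of 32 (18.8%), 12.2% and 8.09%. Some genes have several windows. Counted by window, ACGTG stood in 25 of the 46 windows of the list, against 19.6% of all windows. The genes were listed for glycolysis and the response to low oxygen, so these shares describe the list and are no test. Between the Tfh groups, ACGTG stood in genes of both directions, in 3 of the 4 that were higher in Venus-high cells (Egln3, Bnip3 and Pfkfb3) and in all 3 of the lower ones that had a window (Hk2, Ldha and Slc16a1). Of the 17 genes that were higher in Venus-high Tfh than in naive cells, 13 held ACGTG, and Tpi1, Pfkl, Pfkp and Eno2 did not. Of the 5 lower ones, 4 had a window and 2 of these held it. All these are matches of letters in a window only.

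**Figure D1:**
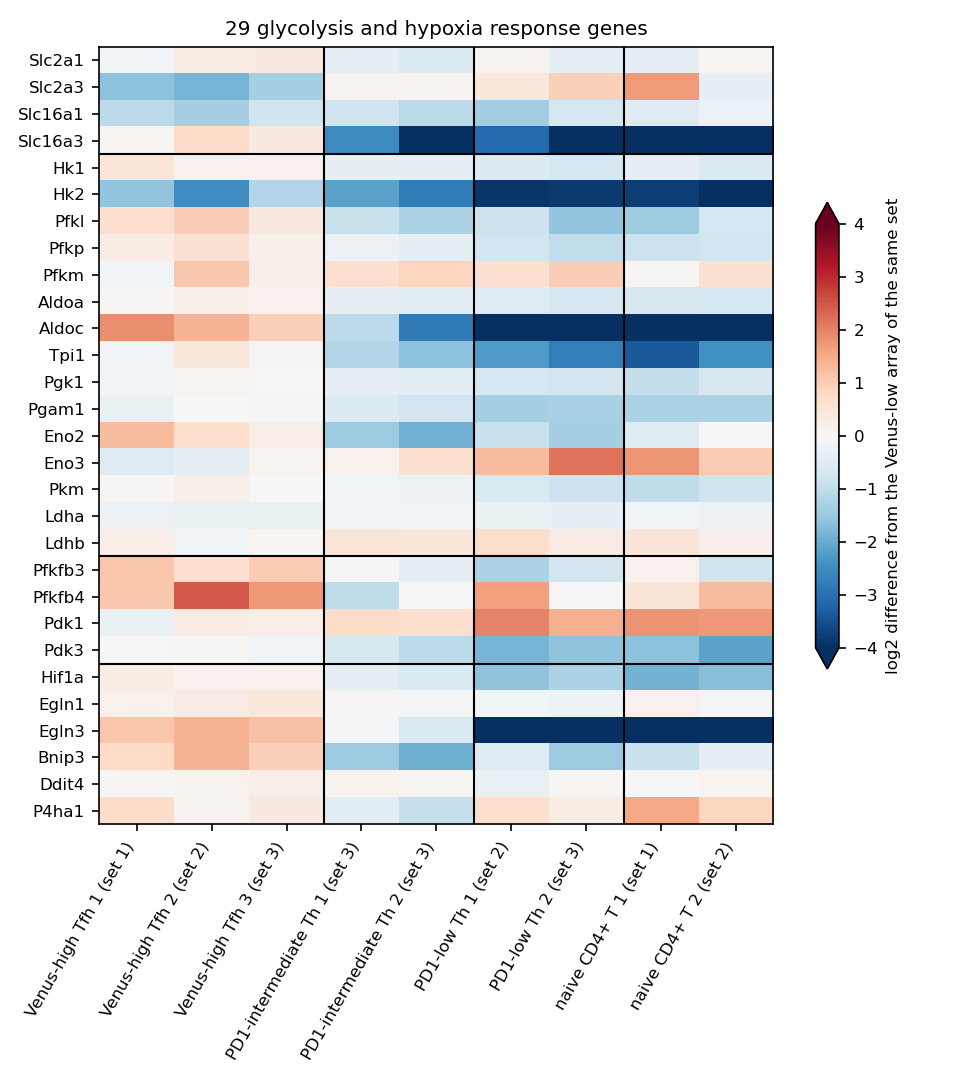
Log2 signal of each of the 29 tested genes minus that of the Venus-low array of the same array set, for the 9 other arrays, with colours held at -4 and 4. Blocks from the top are carriers, glycolytic enzymes, flux regulators and genes of the hypoxia response. Egln3 was far below the Venus-low level on all PD1-low and naive arrays and above it on all 3 Venus-high arrays, and Hk2 was below it on all 9.

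Venus-high and Venus-low Tfh, 2 groups within the PD1-high gate, differed in a small number of these genes and in both directions. Of the 29, 4 rose in Venus-high cells (Egln3, Bnip3, Pfkfb3 and Pfkfb4) and 4 fell (Hk2, Slc2a3, Slc16a1 and Ldha). These 8 are 27.6% of the genes tested, where 16.9% of all genes passed in either direction, 7.47% as higher and 9.42% as lower. The enzymes of glycolysis did not rise together: of 15 tested, Hk2 and Ldha fell and 13 did not pass. The median difference of the 29 genes was 0.17, against 0.02 over all genes.

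Among the genes of the hypoxia response, Egln3 had the smallest adjusted p. It encodes a prolyl hydroxylase that acts on HIF-1α, and the gene is itself induced by HIF. Its signal was 12.65, 12.86 and 13.12 on Venus-high arrays 1, 2 and 3 and 11.55, 11.45 and 11.96 on Venus-low arrays 1, 2 and 3. The lowest Venus-high array lay above the highest Venus-low array. Egln3 rose by 1.22 ± 0.15 (adjusted p = 0.00397), a 2.33-fold difference, and by 1.10, 1.40 and 1.16 within pairs 1, 2 and 3. A second Egln3 probe set gave a like difference of 1.06 that did not pass (adjusted p = 0.187).

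Bnip3, whose product directs the removal of mitochondria, read 11.01, 10.59 and 11.92 in Venus-high and 10.22, 9.25 and 10.98 in Venus-low Tfh. The ranges overlapped, set 3 being the brightest in both groups, and Venus-high was the higher array in each pair, by 0.78, 1.35 and 0.94. The fitted rise was 1.02 ± 0.21 (adjusted p = 0.0186). Hif1a itself was high in both groups, at 13.95, 13.77 and 14.52 against 13.65, 13.61 and 14.35. Venus-high lay above Venus-low in each pair, by 0.30, 0.16 and 0.17, and the difference of 0.21 ± 0.13 (adjusted p = 0.304) did not pass. Of the 3 other probe sets of Hif1a, which gave 0.45, 1.12 and 1.70, the last passed (adjusted p = 0.0323). Egln1, the broadly expressed oxygen sensor, Ddit4, an inhibitor of mTORC1, and P4ha1, a collagen prolyl hydroxylase, did not pass, with differences of 0.30 ± 0.11, 0.14 ± 0.09 and 0.40 ± 0.20.

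Both listed bifunctional enzymes that set the level of the fructose bisphosphate that activates phosphofructokinase were higher in Venus-high cells. Pfkfb3 read 10.32, 10.66 and 12.07 against 9.23, 10.02 and 11.06, with pair differences of 1.09, 0.64 and 1.02. Each Venus-high array exceeded its partner, and the fitted rise was 0.92 ± 0.18 (adjusted p = 0.0176). Pfkfb4 had low signals throughout, 6.27, 7.93 and 6.77 against 5.19, 5.49 and 5.05, with no overlap. It rose by 1.75 ± 0.39 (adjusted p = 0.0255), and the pairs differed by 1.08, 2.44 and 1.72. The pyruvate dehydrogenase kinases Pdk1 and Pdk3, which restrain the entry of pyruvate into the mitochondria, did not pass, at 0.10 ± 0.17 and -0.06 ± 0.16. Of the 3 other Pdk1 probe sets, all dimmer, 1 passed as higher (0.80, adjusted p = 0.0223), and the others gave 0.57, adjusted p = 0.0594, and 0.23, adjusted p = 0.447.

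The genes that fell encode the entry of glucose and the handling of lactate. Hk2, the inducible hexokinase, read 6.74, 6.77 and 9.41 in Venus-high and 8.34, 9.25 and 10.58 in Venus-low cells. Venus-high was lower in every pair, with differences of -1.59, -2.48 and -1.17, and the fitted difference was -1.75 ± 0.36 (adjusted p = 0.0204), or 3.36-fold. The glucose carrier Slc2a3 (GLUT3) read 8.002, 9.74 and 10.62 against 9.64, 11.61 and 11.96. It too was lower in every pair (-1.64, -1.87 and -1.34), with a fitted difference of -1.61 ± 0.36 (adjusted p = 0.0258), and its second probe set gave -1.64 (adjusted p = 0.0377). Slc16a1, a carrier of lactate and pyruvate, read 9.78, 9.67 and 11.09 against 10.81, 11.00 and 11.89. Its pair differences were -1.03, -1.33 and -0.80 and the fitted one -1.06 ± 0.17 (adjusted p = 0.00905). Ldha, which makes lactate from pyruvate, was near the top of the scale in both groups, at 14.24, 14.27 and 14.67 against 14.48, 14.56 and 14.93, where array maxima were 16.0 to 16.2. The pairs differed by -0.24, -0.28 and -0.27, which makes -0.26 ± 0.07 (adjusted p = 0.0491), a fold of 1.20 at the edge of the threshold.

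The main glucose carrier of T cells, Slc2a1 (GLUT1), did not pass. It read 13.68, 12.99 and 14.05 in Venus-high and 13.79, 12.70 and 13.70 in Venus-low Tfh, the pairs differed in sign (-0.12, 0.28 and 0.35), and the difference was 0.17 ± 0.16 (adjusted p = 0.485). The lactate exporter Slc16a3 had 9.12, 9.06 and 9.84 against 9.02, 8.29 and 9.49, a difference of 0.41 ± 0.59 (adjusted p = 0.681). Pfkl and Pfkp, subunits of phosphofructokinase, missed the threshold narrowly with 0.67 ± 0.18 (adjusted p = 0.0502) and 0.36 ± 0.10 (adjusted p = 0.0525). Pfkp was higher by 0.29, 0.60 and 0.21 in the 3 pairs, and Pfkl did not overlap, with 11.61, 11.39 and 11.66 against 10.94, 10.42 and 11.29. Each had a dimmer probe set that passed (1.45, adjusted p = 0.0299 for Pfkl and 0.97, adjusted p = 0.0179 for Pfkp), and another one for Pfkl did not (0.77, adjusted p = 0.101). Of 13 genes with several probe sets, 4 that did not pass (Hif1a, Pdk1, Pfkl and Pfkp) had another probe set that did. Aldoc, an aldolase, was higher by 1.86, 1.35 and 0.96 and did not pass either (1.39 ± 0.55, adjusted p = 0.131). Tpi1, triosephosphate isomerase, and Pgam1, phosphoglycerate mutase, had pair differences of -0.12, 0.41 and 0.05 and -0.27, 0.01 and -0.05. Pkm, pyruvate kinase, had 0.05, 0.21 and -0.03. In sign alone, 15 of the 29 genes were higher in Venus-high cells in all 3 pairs (27.3% of all genes were) and 4 were lower in all 3 (27.6% of all genes were).

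**Figure D2:**
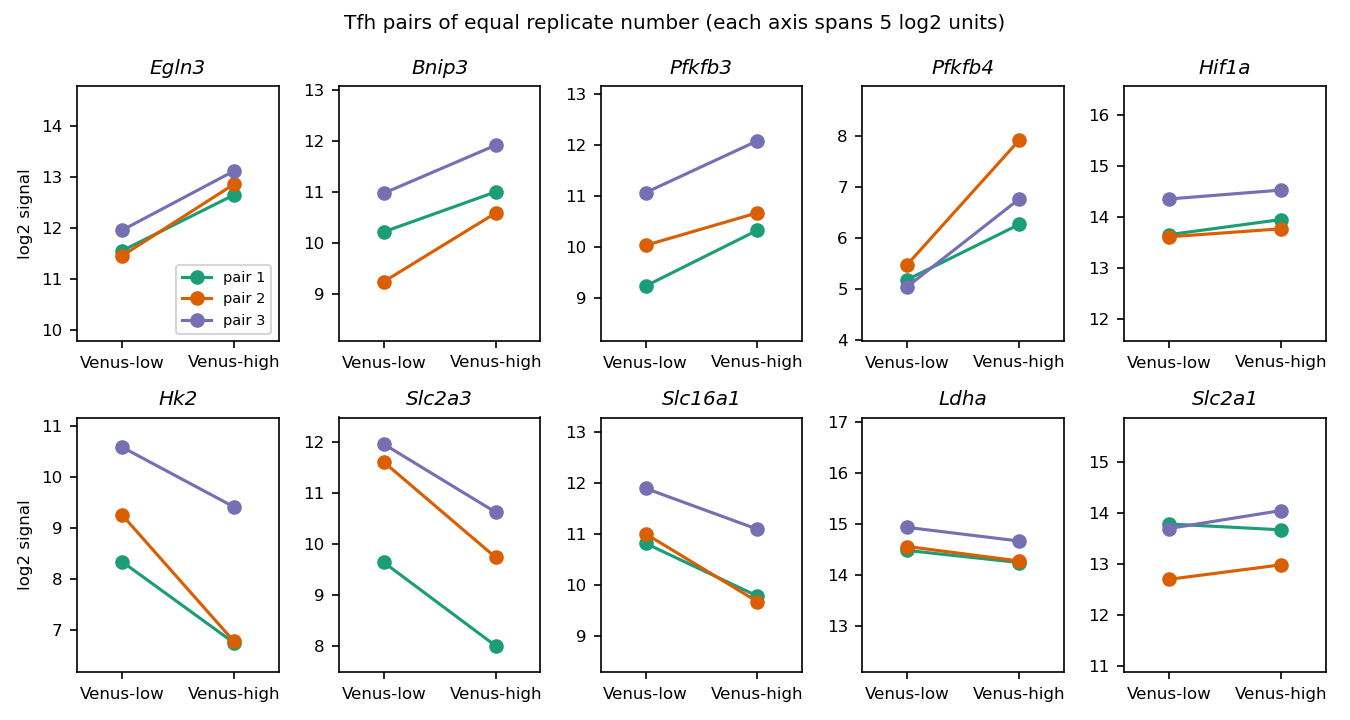
Log2 signal on the Venus-low (left) and Venus-high (right) array of each Tfh pair of equal replicate number, for the 8 genes that passed and for Hif1a and Slc2a1, which did not. Each axis spans 5 log2 units, so slopes can be compared between panels. Lines rise in all 3 pairs for Egln3, Bnip3, Pfkfb3 and Pfkfb4 and fall in all 3 for Hk2, Slc2a3, Slc16a1 and Ldha.

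Without the array set as a term, limma called 0 of the 29 genes, where 1.31% of all genes passed. At an unadjusted p under 0.05 there were 3 of the 29 (10.3%) and 9.59% of all genes, and Egln3 came nearest (adjusted p = 0.0685). With each array left out in turn 2 to 10 genes passed: 2 without Venus-high 2, and 3 without Venus-high 1, Venus-high 3, Venus-low 2 or Venus-low 3. Egln3 and Slc16a1 passed in all 12 of these fits. In the same comparison 11 of 12 cell cycle genes fell in Venus-high cells, with a median difference of -1.93, and their part in the differences of Hk2, Slc2a3, Slc16a1 and Ldha was not tested.

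Against naive cells, most of the pathway was higher in Venus-high Tfh. Of the 29 genes 17 rose, 58.6%, and 5 fell, where 20.2% of all genes passed as higher, 20.9% as lower and 41.1% in either direction. The median difference was 1.00 for the 29 genes, also with 4 genes set to their bound, and -0.02 for all genes. Of the 15 enzymes tested 11 rose, 1 fell and 3 did not pass, of the 4 carriers 1 rose and 2 fell, of the 4 flux regulators 2 rose and 1 fell, and of the 6 genes of the hypoxia response 3 rose and 1 fell. Venus-high and naive cells share array sets 1 and 2. The direct differences given below are from those sets.

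Egln3 had the largest difference of the 29. Its signal was 2.25 and 2.30 on the naive arrays, below log2 5, and between 12.65 and 13.12 in Venus-high Tfh. Taking log2 5 as the floor of naive cells, Egln3 was at least 235-fold higher on this probe set (adjusted p = 3.47e-07). On the Venus-high arrays in the sets shared with naive cells the bound was 216-fold. The second probe set, where naive cells were not all below log2 5, also passed, with 6.51 (adjusted p = 1.84e-04). That difference is smaller than the bound of 235-fold, which thus holds for the chosen probe set alone. Hif1a read 11.76 and 11.91 in naive cells, and it rose by 1.98 ± 0.15 (adjusted p = 9.77e-05), 3.93-fold, and by 2.18 and 1.85 within sets 1 and 2. All 4 Hif1a probe sets passed, 3 of them with differences from 1.98 to 5.42 and the last with naive cells below log2 5. Bnip3 rose by 1.72 ± 0.24 (adjusted p = 0.00134). Ddit4 and Egln1 did not pass, and P4ha1 fell by 0.74 ± 0.23 (adjusted p = 0.0386).

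Each step of glycolysis from phosphofructokinase to pyruvate kinase that was measured had at least 1 enzyme gene that rose. Tpi1, which interconverts the 2 triose phosphates, read 13.68, 13.36 and 13.86 in Venus-high and 10.43 and 10.50 in naive cells. It rose by 3.06 ± 0.23 (adjusted p = 9.53e-05), 8.35-fold, with 3 probe sets between 2.96 and 3.17. Pfkp read 13.72, 13.87 and 14.04 against 12.58 and 12.50, without overlap, a rise of 1.22 ± 0.12 (adjusted p = 2.75e-04). Aldoc read 8.38, 9.94 and 10.68 against 2.48 and 3.09, so naive cells lay below the floor. It was at least 25.4-fold higher (adjusted p = 3.00e-04), a bound that was 39.6 without Venus-high 1. Without Venus-high 3, which leaves the sets shared with naive cells, the bound was 17.9.

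Further enzyme genes also rose. Pkm rose by 1.01 ± 0.10 (adjusted p = 3.06e-04), from 13.21 and 13.30 to 14.27, 14.29 and 14.37. Aldoa, the main aldolase of most tissues, rose by 0.82 ± 0.10 (adjusted p = 7.28e-04), the phosphoglycerate kinase Pgk1 by 0.80 ± 0.10 (adjusted p = 9.90e-04) and Pgam1 by 1.14 ± 0.12 (adjusted p = 3.80e-04). Pfkl rose by 1.84 ± 0.21 (adjusted p = 6.10e-04), the constitutive hexokinase Hk1 by 0.78 ± 0.11 (adjusted p = 0.00176), with a dimmer probe set that did not pass (0.01, adjusted p = 0.958), and the enolase Eno2 by 1.11 ± 0.28 (adjusted p = 0.0187). Hk2 read 4.58 and 3.92 in naive cells, below the floor, and passed as higher in Venus-high Tfh (adjusted p = 0.00219). On the Venus-high arrays in the sets shared with naive cells it was at least 3.38-fold higher. With Venus-high 3, from the brighter set 3, that bound would be 6.25.

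Isoforms of the same step differed in direction. Eno3, the enolase best known from muscle, fell by 1.78 ± 0.28 (adjusted p = 0.00241), from 11.40 and 10.31 to 9.13, 8.95 and 9.23, while Eno2 rose. Pfkm, the muscle form of phosphofructokinase, did not pass (0.04 ± 0.29) where Pfkl and Pfkp rose. Of the pyruvate dehydrogenase kinases, Pdk1 fell by 1.65 ± 0.20 (adjusted p = 6.82e-04) and Pdk3 rose by 1.84 ± 0.18 (adjusted p = 3.22e-04). Pfkfb3 rose by 1.18 ± 0.21 (adjusted p = 0.00399), and Pfkfb4, at 5.69 and 6.71 in naive cells, did not pass (1.00 ± 0.45).

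The carriers differed in direction as well. Slc16a3 (MCT4), which exports lactate, read 9.12, 9.06 and 9.84 in Venus-high Tfh and 3.58 and 3.72 in naive cells, at least 20.3-fold higher (adjusted p = 7.80e-04). On the Venus-high arrays in the sets shared with naive cells its bound was 17.0-fold. Slc2a3 read 11.34 and 11.29 in naive cells and fell by 2.38 ± 0.42 (adjusted p = 0.00377). Slc16a1 fell by 0.79 ± 0.20 (adjusted p = 0.0165), and within sets 1 and 2 the differences were -0.52 and -1.11. Slc2a1 did not pass, with 13.39 and 12.80 in naive cells and a difference of 0.33 ± 0.18 (adjusted p = 0.188). The lactate dehydrogenase genes did not pass either. Ldha read 14.30 and 14.31 in naive cells and differed by -0.04 ± 0.08 (adjusted p = 0.706), and Ldhb, the form that favours pyruvate, by -0.25 ± 0.15 (adjusted p = 0.225).

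**Figure D3:**
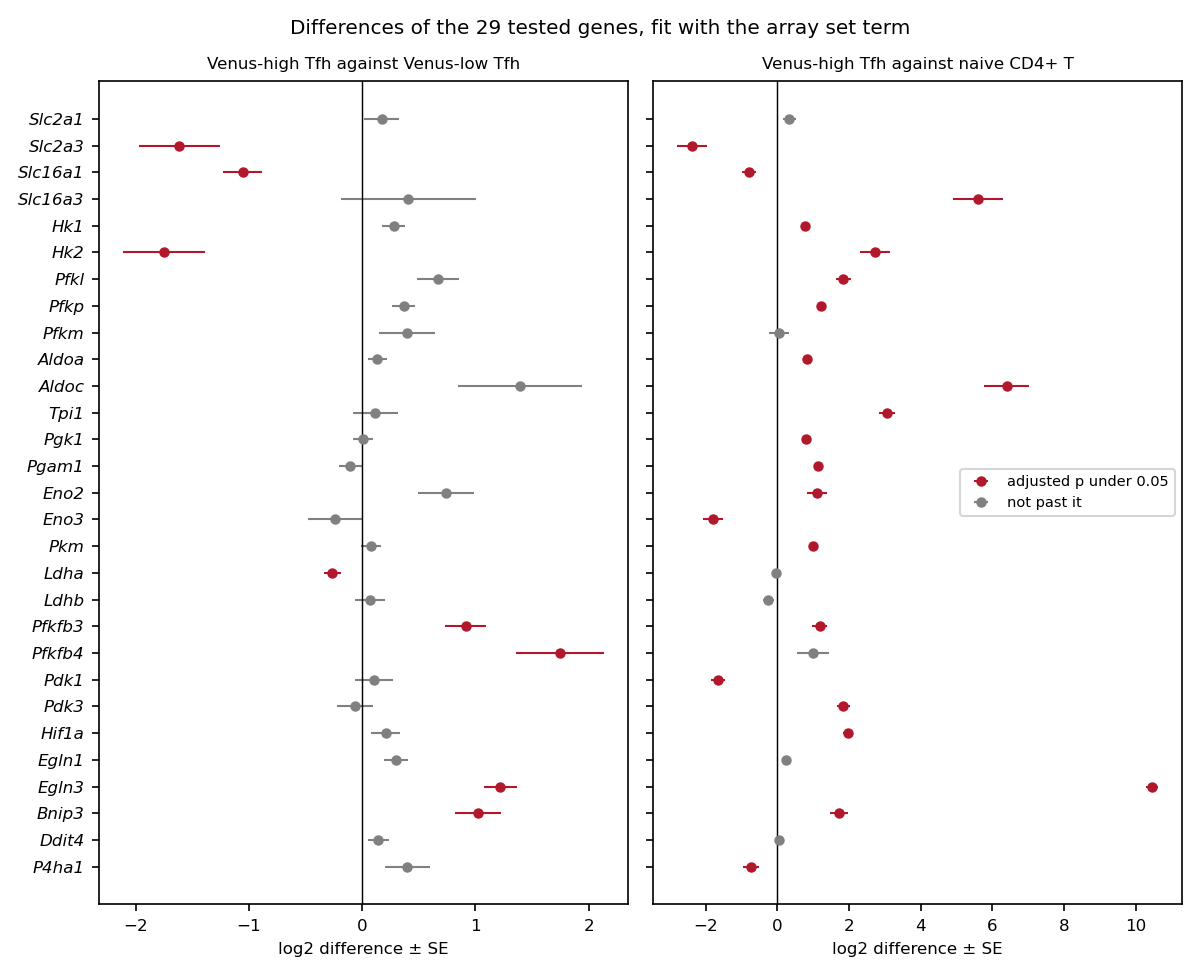
Log2 difference ± SE of each of the 29 tested genes from the fit with the array set term, between Venus-high and Venus-low Tfh (left) and between Venus-high Tfh and naive cells (right), with separate horizontal scales. Red points passed an adjusted p of 0.05 and grey points did not. For Egln3, Aldoc, Slc16a3 and Hk2 naive cells lay below log2 5, so their points on the right are fitted values and not measured sizes. Between the Tfh groups 4 genes lie to the right and 4 to the left among the red points, and against naive cells 17 and 5.

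Without the array set term 15 of these genes passed, where 13.7% of all genes did, and Slc2a3, Slc16a1, Pdk1, P4ha1, Pfkfb3, Hk1 and Eno2 did not. With each array left out in turn 20 to 22 passed, and 15 of the 22 calls were kept in all 24 alternatives tried for each. In this comparison 10 of 12 cell cycle genes rose, with a median difference of 3.53, and their part in the rise of the enzymes was not tested.

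The groups gated between naive cells and Tfh were compared next. PD1-low Th are CD44-high but outside the Tfh gate, and few of these genes passed between them and naive cells. Of the 29, Egln3 alone passed by limma, where 0.566% of all genes did. At an unadjusted p under 0.05 there were 3 of the 29 (10.3%) and 13.5% of all genes. Egln3 read 5.29 and 5.91 in PD1-low cells and 2.25 and 2.30 in naive cells, at least 1.51-fold higher with naive cells at the floor (adjusted p = 0.00341). In the shared set 2 the bound was 1.22-fold. The difference there was 2.99, taken from a naive value below log2 5, so it is no measured size. The second Egln3 probe set gave 1.34 and did not pass (adjusted p = 0.432). With values below log2 5 set to 5, with the mean of all probe sets, and without array set 1 or 3, Egln3 did not pass, and without naive 2 the count was 2. Without the set term Egln3 passed (adjusted p = 0.0104), again alone, where 0.0809% of all genes did. The medians were -0.06 for the 29 genes and -0.04 for all. Hif1a, at 11.99 and 13.08 in PD1-low cells, differed from naive cells by 0.32 ± 0.17 (adjusted p = 0.472), and Hk2, at 5.37 and 6.77, did not pass (adjusted p = 0.542). In PD1-low cells Slc2a1 read 12.84 and 13.32 and Ldha 14.25 and 14.59, with differences from naive cells of -0.06 ± 0.21 and -0.10 ± 0.10 that did not pass.

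Between PD1-low and PD1-intermediate Th, which differ in CXCR5 and PD1, 11 of the 29 genes passed (37.9%), with 8 higher and 3 lower in PD1-intermediate cells, where 12.8% of all genes passed, 8.09% as higher and 4.71% as lower. Egln3 again stood out. It read 11.87 and 11.35 in PD1-intermediate and 5.29 and 5.91 in PD1-low cells. It rose by 5.79 ± 0.20 (adjusted p = 1.76e-05), 55.3-fold on this probe set. Within set 3, the only set that holds both groups, it differed by 5.71, and it passed without the set term (adjusted p = 1.98e-05) and in all 23 alternatives. The second probe set rose by less, 3.99 (adjusted p = 0.00947). On the chosen one the PD1-low values lay near log2 5, so the size of the fold is uncertain.

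Hif1a read 14.00 and 13.73 against 11.99 and 13.08 and rose by 0.91 ± 0.17 (adjusted p = 0.0147). Aldoc read 8.67 and 6.89 against 3.48 and 3.09, below the floor, and was at least 6.85-fold higher (adjusted p = 0.0118). This bound was 3.69 without PD1-intermediate 1 and 12.7 without PD1-intermediate 2. The groups did not overlap in Hif1a or Aldoc. Pkm rose by 0.60 ± 0.11 (adjusted p = 0.0169), from 13.48 and 13.57 to 14.23 and 14.16, and Tpi1 by 1.27 ± 0.26 (adjusted p = 0.0213), from 10.69 and 11.05 to 12.63 and 12.15. The other rises were in Pfkp, Pgam1 and Pdk3, with differences of 0.66 ± 0.13, 0.65 ± 0.14 and 0.85 ± 0.21. The 3 genes that fell were Eno3 (-1.56 ± 0.32, adjusted p = 0.0213), P4ha1 (-1.16 ± 0.26, adjusted p = 0.0309) and Pdk1 (-0.92 ± 0.22, adjusted p = 0.0405). In Hif1a, Pdk1, Pfkp and Tpi1 at least 1 other probe set did not pass here. No carrier passed at this step, and Slc2a1 and Ldha differed by -0.24 ± 0.21 and 0.15 ± 0.09.

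Without the set term limma called Egln3 alone, where 4.01% of all genes passed, and 9 of the 29 (31.0%) and 12.3% of all genes had an unadjusted p under 0.05. With each array left out the count was 1 to 12. It was 1 without PD1-intermediate 1, 2 without PD1-low 2, 5 without PD1-intermediate 2 or PD1-low 1 and 7 without Venus-high 3 or Venus-low 3. Cell cycle genes rose at this step in 11 of 12 cases, with a median of 3.63, and their part in it was not tested.

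Venus-low Tfh exceeded PD1-intermediate Th in 6 of the 29 genes (20.7%), where 3.97% of all genes passed as higher and 6.38% in either direction. No gene of the list passed limma's test as lower on its chosen probe set, where 2.41% of all genes did. At an unadjusted p under 0.05, 2 were lower, and 10.4% of all genes. Of the 3 other Pdk1 probe sets 2 passed as lower (-1.26, adjusted p = 0.0258, and -1.50, adjusted p = 0.0175), while the chosen one did not (-0.73 ± 0.22, adjusted p = 0.0961). PD1-intermediate arrays lie in set 3 alone, so the direct difference is that from Venus-low 3. Bnip3, at 9.51 and 9.03 in PD1-intermediate cells, rose by 1.55 ± 0.26 (adjusted p = 0.0262), and within set 3 by 1.71. Hk2, at 8.45 and 7.78, rose by 2.62 ± 0.46 (adjusted p = 0.0286), and within set 3 by 2.47. The 2 groups overlapped in both genes.

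Tpi1 read 13.80, 12.95 and 13.80 in Venus-low Tfh and 12.63 and 12.15 in PD1-intermediate cells, without overlap, a rise of 1.35 ± 0.25 (adjusted p = 0.0328). Slc16a1 read 10.81, 11.00 and 11.89 against 11.09 and 10.83 and rose by 1.14 ± 0.22 (adjusted p = 0.0341), with overlapping arrays. Pgam1 read 13.04, 13.03 and 13.79 against 13.25 and 13.02, overlapping, with a rise of 0.69 ± 0.13 (adjusted p = 0.0343) that within set 3 was 0.66. Eno2 rose by 1.42 ± 0.31 (adjusted p = 0.0456). Slc16a3, at 6.94 and 4.94 in PD1-intermediate cells, differed by 3.17 ± 0.76 and just missed the threshold (adjusted p = 0.0569). Hif1a, Slc2a1 and Ldha differed by 0.53 ± 0.16, 0.45 ± 0.20 and 0.17 ± 0.09 and did not pass, and a dim probe set of Hif1a passed as higher (2.46, adjusted p = 0.0420).

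Without the set term limma called 0 of the 29, where 0.566% of all genes passed, and 7 of the 29 (24.1%) and 10.4% of all genes had an unadjusted p under 0.05. With each array left out the count was 0 to 7. It was 0 without PD1-intermediate 1, PD1-intermediate 2, Venus-high 3 or Venus-low 3, 1 without Venus-high 1, 2 without Venus-low 2 and 3 without Venus-low 1. Cell cycle genes rose in 7 of 12 cases, with a median of 2.30, and their part in it was not tested. Neighbouring comparisons share arrays, here the Venus-low arrays with the comparison of the Tfh groups, so their differences are not independent. Side by side, Hk2 differed by 2.62 between Venus-low Tfh and PD1-intermediate Th and by -1.75 between Venus-high and Venus-low Tfh, Slc16a1 by 1.14 and -1.06, and Bnip3 by 1.55 and 1.02.

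**Figure D4:**
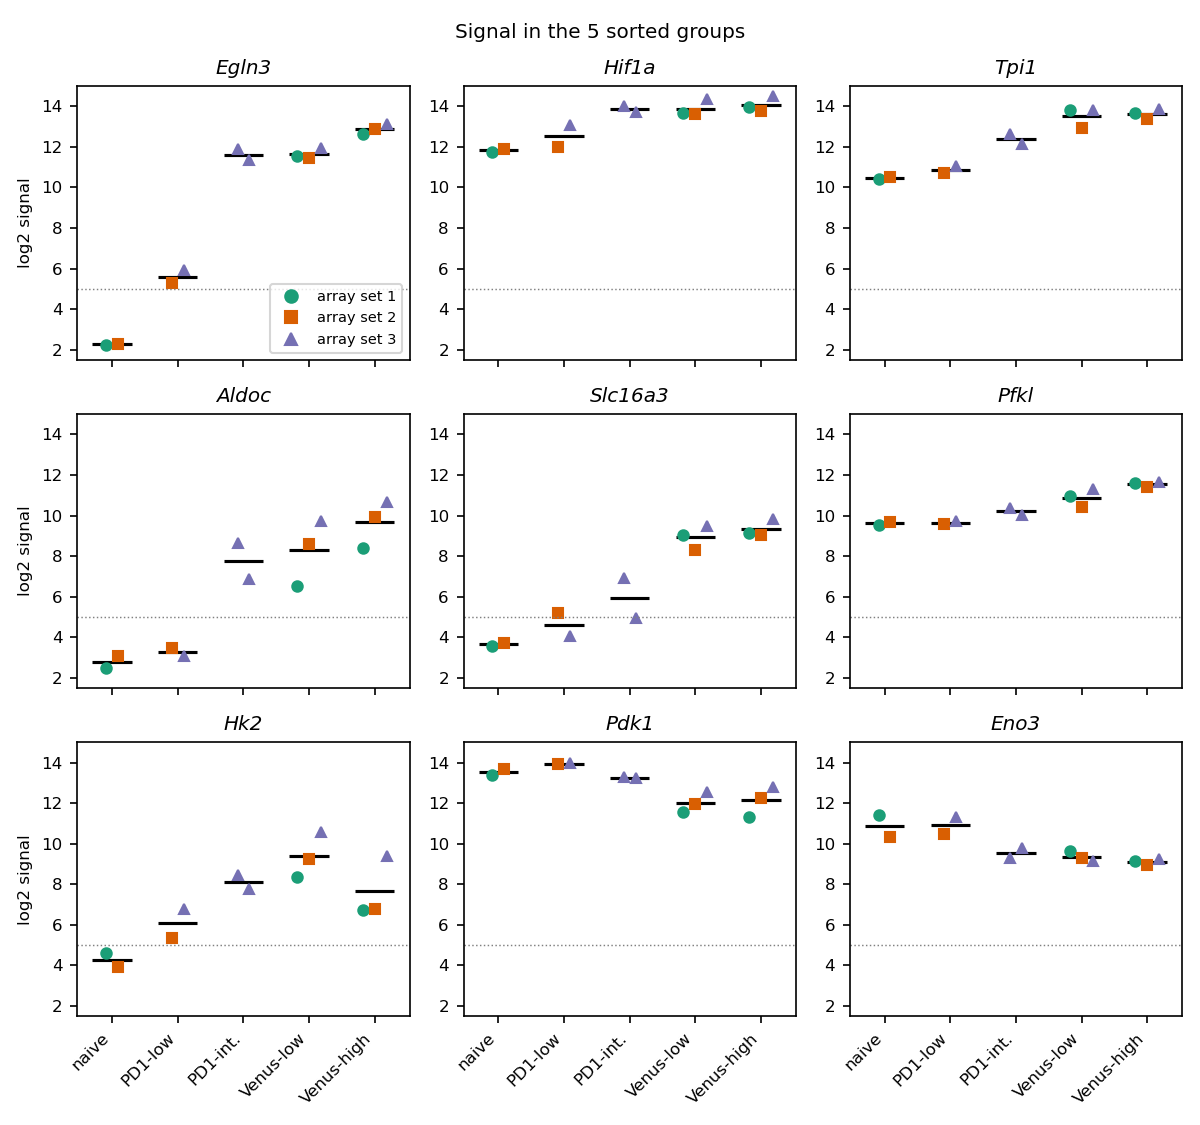
Log2 signal of 9 genes on each array in the 5 sorted groups, with bars at the group means, marker shapes for the 3 array sets and a dotted line at log2 5. Egln3 lies at about 2.3 in naive cells and above 11 in the 3 CXCR5+ groups, Slc16a3 reaches 8 only in the 2 Tfh groups among these arrays, and Pdk1 and Eno3 are highest in PD1-low and naive cells.

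Over the 5 groups the order of levels varied by gene. Egln3 lay lowest in naive cells, next in PD1-low Th and at 11.35 or more on all arrays of the other groups. Slc16a3 reached 8.29 to 9.84 in the Tfh groups and read 6.94 and 4.94 in PD1-intermediate Th and 5.19 and 4.05 in PD1-low Th. Hk2 had its highest group mean in Venus-low Tfh, 9.39 ± 1.13 (SD, n = 3), above 8.12 ± 0.48 (SD, n = 2) in PD1-intermediate Th and 7.64 ± 1.53 (SD, n = 3) in Venus-high Tfh. Both PD1-intermediate arrays lie in set 3, and the means are not adjusted for the sets. Within set 3 Hk2 read 9.41 on Venus-high 3, above 8.45 and 7.78 in PD1-intermediate Th. That order is the reverse of the means. Slc2a3 had its lowest group mean in Venus-high Tfh, 9.45 ± 1.33 (SD, n = 3), against 12.47 ± 0.64 (SD, n = 2) in PD1-low Th. In Pgk1 the 2 Tfh groups spanned 14.26 to 14.42 together and PD1-low and naive cells 13.48 to 13.61. Ddit4, at 14.16 to 15.00, and Egln1, at 12.20 to 13.41, passed in none of the 5 comparisons, and neither did Pfkm, Ldhb and Slc2a1.

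Related genes outside the list were read from further lists of 2 to 12 tested genes each, whose counts stand beside the shares of all genes given above, 7.47% higher and 9.42% lower between the Tfh groups and 20.2% and 20.9% against naive cells. Of 7 other glycolytic enzyme genes tested, 2 (28.6%) rose in Venus-high over Venus-low Tfh. Pgam2, the muscle form of phosphoglycerate mutase, read 9.26, 10.49 and 9.73 against 7.31, 7.08 and 7.82, without overlap (2.42 ± 0.39, adjusted p = 0.00917). It was below log2 5 in PD1-intermediate, PD1-low and naive cells. Bpgm, which makes bisphosphoglycerate, rose by 0.86 ± 0.09 (adjusted p = 0.00311). Against naive cells 4 of the 7 (57.1%) rose in Venus-high Tfh: Pgam2, Bpgm, Gapdh (0.58 ± 0.16, adjusted p = 0.0238), read by a control probe set of the array, and Pgm1 (0.64 ± 0.20, adjusted p = 0.0377), whose probe set was among those out of place between sets.

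Pdk2, a further pyruvate dehydrogenase kinase, was the gene that passed between the Tfh groups among 10 tested for the entry of pyruvate into mitochondria. It read 8.23, 7.95 and 8.64 in Venus-high and 6.40, 4.50 and 4.98 in Venus-low Tfh, with 2 Venus-low arrays below log2 5, a rise of 2.98 ± 0.41 (adjusted p = 0.00577) that also passed without the set term (adjusted p = 0.0208). In PD1-low and naive cells Pdk2 read 7.55 to 7.96 and in PD1-intermediate cells 4.10 to 4.88. The pyruvate dehydrogenase phosphatases Pdp1 and Pdp2, which reactivate the enzyme, were lower in Venus-high Tfh than in naive cells, with differences of -1.56 ± 0.21 (adjusted p = 0.00111) and -1.09 ± 0.20 (adjusted p = 0.00453). For Pdp1, 2 of the 3 Venus-high arrays and 1 of the 2 naive arrays lay below log2 5. In all, 3 of the 10 (30.0%) fell in that comparison.

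Among 5 other carriers, the sugar carrier Slc2a6 rose by 2.31 ± 0.48 (adjusted p = 0.0213) between the Tfh groups, with 1 Venus-low array below log2 5. Against naive cells 3 of the 5 rose. Slc2a6 and Slc2a8 read below log2 5 on both naive arrays. Slc2a6 was at least 9.52-fold higher in Venus-high Tfh (adjusted p = 8.79e-04), a bound that ran from 4.999 without Venus-high 3 to 19.8 without Venus-high 1. For Slc2a8 the bound was 2.31-fold (adjusted p = 0.00150). Bsg, the partner protein of lactate carriers, rose by 0.44 ± 0.12 (adjusted p = 0.0213). In the pentose phosphate pathway 1 of 6 (16.7%) passed between the Tfh groups, Tkt, transketolase, which fell by 0.66 ± 0.08 (adjusted p = 0.00397). Against naive cells Pgd and Rpia rose by 0.63 ± 0.09 and 0.58 ± 0.11. Of 2 tested fructose bisphosphate regulators, Tigar fell against naive cells (-0.97 ± 0.23, adjusted p = 0.0150).

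In the oxygen sensing list, 2 of 7 (28.6%) rose in Venus-high over Venus-low Tfh. Arnt2, a partner subunit of HIF proteins, read 9.48, 9.13 and 11.68 against 6.95, 6.71 and 10.51 (2.04 ± 0.32, adjusted p = 0.00875), and 2.19 and 2.15 in naive cells. Egln2, the third prolyl hydroxylase, rose by 0.56 ± 0.12 (adjusted p = 0.0227). Epas1, which encodes HIF-2α, went the other way from Hif1a against naive cells. It read 4.24, 5.84 and 5.87 in Venus-high Tfh and 8.52 and 9.54 in naive cells, with 1 Venus-high array below log2 5 (-4.01 ± 0.49, adjusted p = 7.75e-04). Against naive cells 3 of the 7 (42.9%) rose and 1 (14.3%) fell.

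Of 12 other hypoxia-induced genes, 1 rose and 1 fell between the Tfh groups (16.7% in either direction, where 16.9% of all genes passed). Against naive cells 4 rose, Tfrc among them with a probe set out of place between sets, and 2 fell, where 41.1% of all genes passed in either direction. Bhlhe40, a transcription repressor, read 9.43, 10.22 and 11.97 in Venus-high Tfh and 2.09 and 2.69 in naive cells, at least 46.5-fold higher (adjusted p = 2.51e-05), or 28.3-fold without Venus-high 3. Higd1a rose by 0.66 ± 0.11 (adjusted p = 0.00311). Car12, a carbonic anhydrase, read 4.21, 3.82 and 4.25 in Venus-high Tfh, all below log2 5, and 6.23 and 7.51 in naive cells. With Venus-high Tfh at the floor it was lower by at least 3.66-fold (adjusted p = 0.00306), a bound of 2.34 without naive 2 and 5.70 without naive 1. Of 8 genes that control glucose use, 1 rose between the Tfh groups, Bcl6 (0.64 ± 0.15, adjusted p = 0.0327), the transcription factor that defines Tfh. Against naive cells 2 (25.0%) rose, Bcl6 (2.75 ± 0.18, adjusted p = 5.51e-05) and Irf4 (3.25 ± 0.32, adjusted p = 3.06e-04), and 2 (25.0%) fell, among them Txnip, which limits glucose uptake (-2.67 ± 0.29, adjusted p = 4.75e-04). Without the set term these lists had fewer genes past the threshold, 2 in all between the Tfh groups, namely Pgam2 and Pdk2.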

How the data were processed

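The authors deposited log2 signals per probe set for 12 Affymetrix mouse arrays, made with GCRMA (a background correction from probe sequence, quantile normalization and a summary over probes) per the submitters' processing notes, in a version not given in the sources used here. The table held 45101 probe sets, of which the platform annotation gave 34958 a gene symbol of their own, 932 several and 9211 none.

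From these values, probe sets at log2 5 or more on at least 2 arrays were kept and the one with the highest mean represented its gene, which left 9893 genes. R 4.3.3 with limma 3.58.1 fitted all 12 arrays as 5 groups, since groups had 2 or 3 arrays, with 3 array sets as a fixed term (5 residual degrees of freedom, 7 without it). The array sets came from average-linkage clustering of the arrays' quantiles, with the number set by choice, and the term was used because values of the sets lie on different scales. Tests were 2-sided over the 5 comparisons, adjusted by Benjamini-Hochberg over all genes tested. The number of arrays limits the precision. A group with no array at log2 5 or above was given that value as its floor, and the fold is then a lower bound from group means. The adjusted p beside such a bound is that of the fitted difference, with values below log2 5 as deposited, and does not test the bound. Other folds come from the fitted difference.

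Over all genes, deviations from the group mean of Venus-high and Venus-low arrays with the same replicate number correlated at 0.914, 0.945 and 0.915 for pairs 1, 2 and 3, against at most -0.06 between unlike numbers. Arrays with the same number also share an array set, and deviations from a group mean push correlations between unlike numbers below 0. These values therefore cannot tell a pairing of samples from the array set. The numbers were taken to pair the arrays. This pairing comes from the data, since the labels give no more than the number.

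Per-array values are given for genes that passed between the Tfh groups, for up to 5 genes with the smallest p in each other comparison, and for Hif1a, Ldha, Slc2a1 and Hk2, and from each further list up to 3 genes with the smallest adjusted p are named. A few other genes are named with values chosen after these were seen. The genes, lists, tests and array sets were chosen with earlier results of these data known. The fit was run on data simulated from the same model with independent residuals. Such data cannot show whether the set term suits these arrays. Alternatives changed the set term, filter, floor, normalization, variance model, probe set and arrays used. Promoters were searched in Python 3.11.15 and figures made with matplotlib 3.10.9.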

Additional observations from a re-analysis of the deposited data

How the results depend on the processing

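The numbers of the 29 genes passing were 8 between Venus-high and Venus-low Tfh, 6 between Venus-low Tfh and PD1-intermediate Th, 11 between PD1-intermediate and PD1-low Th, 1 between PD1-low Th and naive cells and 22 between Venus-high Tfh and naive cells, and counts given as 5 values follow that order. Without the array set term, which for the Tfh groups is the replicate block, they were 0, 0, 1, 1 and 15, and the median difference over all genes was 0.02, -0.40, 0.29, 0.28 and 0.18, against -0.04 to 0.02 with the term. On the 6 Tfh arrays alone 8 genes passed with the replicate block and 0 without it. With array sets as a random block (consensus correlation 0.87) the numbers were 10, 9, 10, 1 and 21. With no filter on low values 4 passed between the Tfh groups, 1 between Venus-low Tfh and PD1-intermediate Th and 7 between PD1-intermediate and PD1-low Th. For Venus-low Tfh against PD1-intermediate Th, the mean of all probe sets gave 10, an intensity trend with robust variance 13, and leaving out array set 1 or 2 gave 1 and 0. Between the Tfh groups leaving out array set 1, 2 or 3 gave 4, 3 and 0. For PD1-intermediate against PD1-low Th 4 passed without set 2. For PD1-low Th against naive cells 0 passed with values below log2 5 set to 5, with the mean of all probe sets, without set 1 and without set 3. The comparisons with PD1-intermediate Th could not be fitted without set 3. With each array left out in turn the ranges were 2 to 10, 0 to 7, 1 to 12, 1 to 2 and 20 to 22. Other alternatives kept the counts within 1.5 times. Over the 48 pairs of a gene and a comparison that passed, 901 of 1151 alternative values kept the direction and the call, 250 kept the direction and lost the call, and 0 reversed. The causes of these shifts were not tested. Signals near or below log2 5, as for Egln3, Aldoc and Slc16a3 in naive cells, bound a fold from below only.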
